A study of Mus musculus with 4 samples.

Results

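Genes of serine, one-carbon, amino acid and polyamine metabolism were followed in T cells of KO mice and T cells of wild-type (WT) mice that had been kept under Treg-inducing conditions. Treg cells are CD4 T cells that restrain immune responses and depend on the transcription factor Foxp3. The list holds 39 genes, chosen by name, out of 18193 genes that the array measures with a probe set of their own. It and the other gene lists below were chosen with earlier results of these data known, so shares of called genes only describe them. A probe set is a group of short probes for 1 transcript, and a gene was read from the brightest probe set, over all 4 arrays, that names that gene alone. By this rule 36 of the 39 genes had a value and 34 were bright enough to be tested. Pycr1, Mat2a and Sms had no probe set naming them alone and were not analysed here, and Gldc and Arg2 were too dim for the test.

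KO cells were set against WT cells, with 2 arrays each. Both groups were naive T cells taken fresh from spleen and stimulated for 3 days towards the Treg state, and total RNA of each sample went on a single-colour Affymetrix array of its own. Which gene the KO mice lack is not given in the labels, nor are strain, age and sex, so that gene's level could not serve to check the genotype. The titles number the samples within each group but say nothing of separate cultures, so the spread behind the p-values may in part be technical. The T cell genes Cd3d, Cd3e, Cd3g, Cd4, Cd28, Cd5 and Thy1 were measured above the dim range in both groups. Foxp3 had signals of 947 and 1101 on the KO arrays, against 2177 and 2033 on the WT arrays.

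Over the 27022 probe sets tested, log2 signals correlated at 0.977 between the KO arrays, at 0.979 between the WT arrays, and at 0.933 to 0.941 for a KO array with a WT array. Probe sets are no replicates, so these values only describe the arrays. Summed over the 8 CD4 T cell markers, signals were 84218 and 77560 in KO cells and 61476 and 59180 in WT cells, a sum carried by Cd3d, Cd3g and Thy1. Cd3d, Cd3e, Cd3g and Thy1 rose, Cd5 and Foxp3 fell, and Cd4 (-0.33) and Cd28 (-0.20) were not called. Several markers of other cell types were higher in KO cells, among them Cd8a and Cd8b1. Of the B cell and plasma cell markers, Jchain and Sdc1 rose, Ms4a1, Cd79a and Cd79b were not called, and Pax5 was too dim to test. Jchain had 4841 and 2421 in KO cells, against 65.1 and 66.2 in WT cells. Of the NK cell markers, Klrk1 rose, Eomes was not called, and Ncr1 and Klra8 were too dim to test. Of 7 listed mast cell and basophil markers 6 rose, with summed signals of 13646 and 8885 in KO cells and 797 and 1047 in WT cells. Both WT signals of Fcer1a, Cpa3 and Ms4a2 lie under 33.2, the limit below which probe sets counted as dim. The mean WT signal of Hdc, another marker of this list, lies under it too, at 23.1. These genes passed the filter only through the KO arrays. Of 8 macrophage and monocyte markers 4 rose, with sums of 1727 and 1493 in KO cells and 479 and 670 in WT cells, while Csf1r (-0.11) and Fcgr1 (-0.58) were not called and Itgam and Mrc1 were too dim to test. In such bulk samples, fewer cells of a type and less RNA per cell cannot be told apart. The part that these cells have in the results below was not tested.

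Dividing T cells need serine, glycine and one-carbon units to build nucleotides. Serine is made from an intermediate of glycolysis by Phgdh, Psat1 and Psph, and the Shmt enzymes pass its carbon to folate, where the Mthfd enzymes carry it on to purines and thymidylate. Many of these genes, with those for asparagine, proline and transamination, are known targets of Atf4, a transcription factor whose translation increases when amino acids run short or the endoplasmic reticulum is stressed. Polyamines, made from ornithine by Odc1, bind nucleic acids and support growth.

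Phgdh of serine synthesis, Shmt2 and Mthfd2 of the folate cycle, and genes of asparagine, glutamine and proline synthesis were lower in KO cells, while Arg1, Bcat1 and 2 stress-response genes were higher. With limma, 9 of the 34 tested genes fell and 4 rose at an adjusted p of 0.05, and 21 did not pass. Those that fell were Phgdh, Shmt2, Mthfd2, Ddit3, Asns, Glul, Aldh18a1, Oat and Sat1, and those that rose were Arg1, Bcat1, Eif4ebp1 and Trib3. Over all 12547 genes tested, 20.3% were called, 10.5% higher and 9.87% lower in KO cells. The members called lower were 26.5% of those tested, and the members called higher were 11.8%, a share near the background. The median difference, KO minus WT on the log2(signal + 16) scale, was -0.16 over the members and -0.026 over all genes tested. KO arrays lay entirely below WT arrays for 18 members, entirely above them for 6, and overlapped with them for 10. Over all genes tested, KO lay entirely below WT for 32.9% and entirely above for 29.8%.

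The members were read from bright probe sets, for which the test has more power. Their mean signal lay at a median percentile of 87.2 among all measured genes, against 65.5 for the genes tested. With the dimmest 60% of probe sets left out, 26.6% of genes were called, and 14 of 32 members. The calls also rest on how the spread was modelled. With the spread fitted without its dependence on signal, 5.19% of genes and 3 of 34 members were called, namely Phgdh, Glul and Bcat1.

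**Figure D1:**
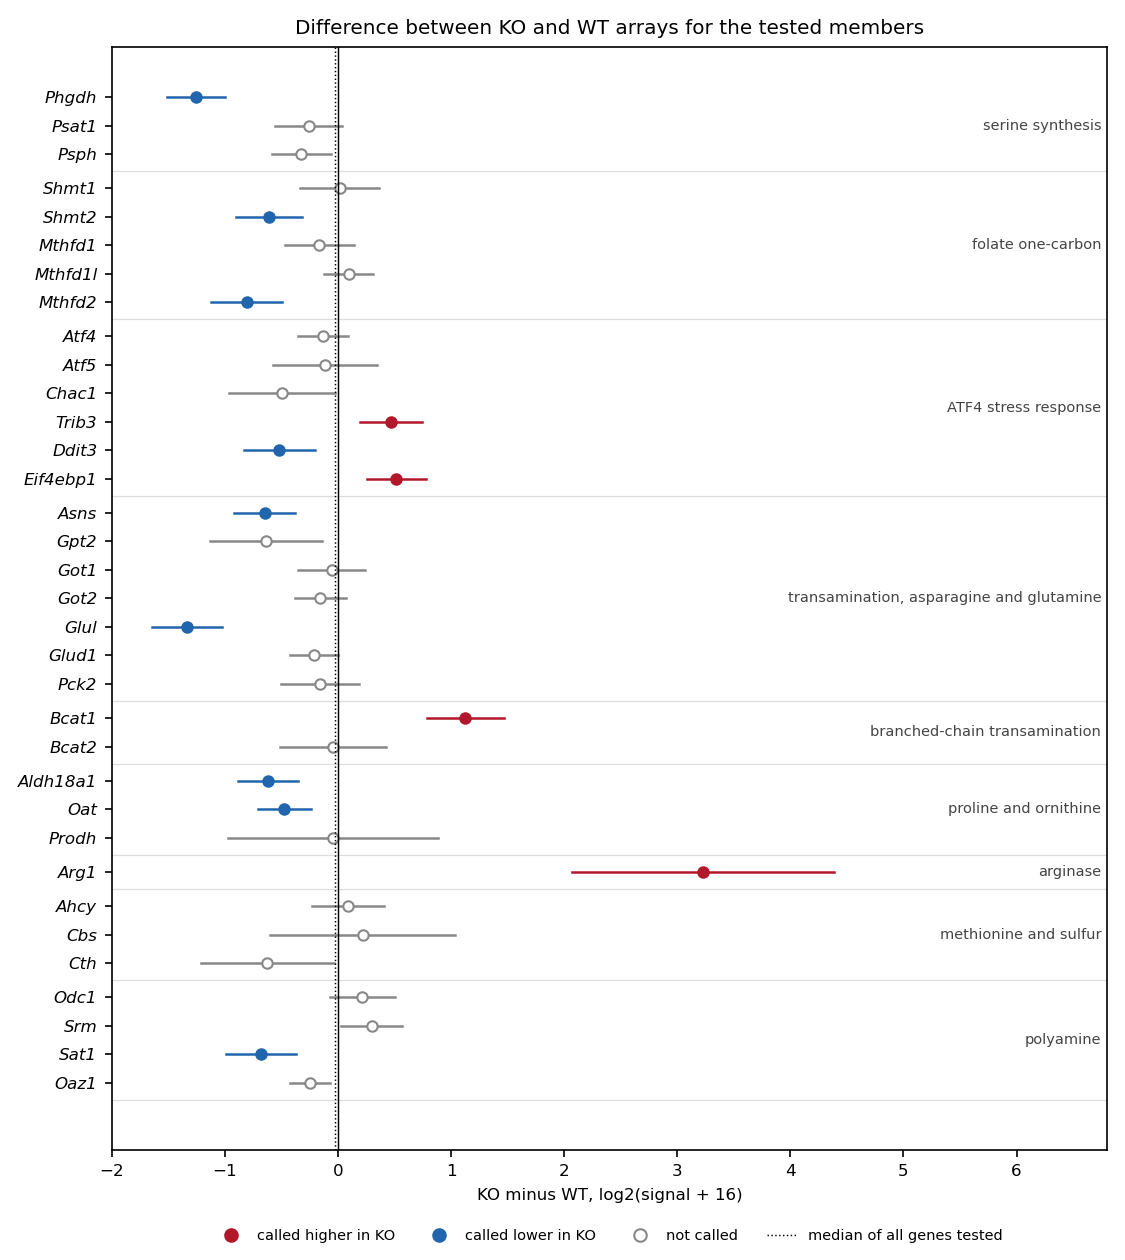
KO minus WT difference on the log2(signal + 16) scale for the 34 tested members, ordered by role, with bars for the 95% interval of the single gene, not adjusted over genes. Filled blue points were called lower and filled red points higher in KO cells, open points were not called, and the dotted line is the median of all genes tested. Phgdh and Glul lie farthest to the left at -1.25 and -1.34, and Arg1 farthest to the right, where the WT signals lie under the dim limit.

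Phgdh, the enzyme of the committed step of serine synthesis, had signals of 6109 and 5236 on the KO arrays, against 14429 and 12653 on the WT arrays. Both KO arrays were below both WT arrays. The group means were 5672 ± 618 in KO cells and 13541 ± 1255 in WT cells (SD, n = 2 each). Phgdh fell by 1.25 ± 0.11 on the log2 scale (SE, limma, adjusted p = 0.000229), so that WT signal was 2.39 times that of KO cells. All 4 of its probe sets were called lower, with log2 differences of -1.26 to -0.96. All 4 carry a suffix that marks possible cross-hybridisation, so they give no reading free of that doubt.

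The enzymes of the later steps differed less. Psat1, which transfers an amino group to the intermediate, had 2985 and 2783 in KO cells, against 3872 and 3081 in WT cells. Its log2 difference was -0.26 ± 0.13 (limma, adjusted p = 0.216), and -0.096 without WT array 1 and -0.42 without WT array 2. Psph, the phosphatase that releases serine, had 2110 and 2289 in KO cells, against 2899 and 2616 in WT cells, a log2 difference of -0.32 ± 0.11 (limma, adjusted p = 0.0906). The KO arrays were below the WT arrays for both genes, but neither passed the test, and their 95% intervals reach from -0.56 to 0.038 for Psat1 and from -0.58 to -0.062 for Psph. Whether Phgdh differs from them in its change was not tested.

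In the folate cycle, 2 genes of the mitochondrial branch were lower in KO cells. Mthfd2, the mitochondrial methylenetetrahydrofolate dehydrogenase that is typical of dividing cells, had 2673 and 2274 in KO cells, against 4812 and 3887 in WT cells. It fell by 0.81 ± 0.14 on the log2 scale (limma, adjusted p = 0.00523), and both of its probe sets were called lower. Shmt2, the mitochondrial enzyme that takes the one-carbon unit from serine, had 1656 and 1596 in KO cells, against 2737 and 2277 in WT cells. It fell by 0.61 ± 0.13 (limma, adjusted p = 0.0131). The other 3 probe sets of Shmt2 were dimmer and not called, with log2 differences of -0.34 to -0.15. Read from its probe set without a cross-hybridisation mark, Shmt2 was at -0.34 (adjusted p = 0.319), and without WT array 1 its call was lost as well (adjusted p = 0.0937).

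The cytosolic counterparts did not pass. Shmt1 had 579 and 567 in KO cells, against 596 and 540 in WT cells, and its log2 difference of 0.014 has a 95% interval of -0.34 to 0.37. Mthfd1, the trifunctional cytosolic enzyme, had 1560 and 1378 in KO cells, against 1770 and 1533 in WT cells (log2 difference -0.17 ± 0.13). The groups overlapped for both genes. Mthfd1l, the mitochondrial formate-producing synthetase, did not go with Mthfd2 and Shmt2. It had 5335 and 5255 in KO cells, against 5071 and 4847 in WT cells, a log2 difference of 0.095 ± 0.094 (limma, adjusted p = 0.540). Gldc, the glycine cleavage decarboxylase, was dim, with 45.8 and 6.3 in KO cells and 5.7 and 53.6 in WT cells. Its arrays disagreed within each group by more than the groups differed.

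Of the other listed genes of folate and serine metabolism, 2 of 21 tested rose and 1 fell. Mtfmt, which formylates mitochondrial initiator tRNA, had 687 and 909 in KO cells, against 415 and 418 in WT cells (log2 difference 0.90 ± 0.18), but the mean over its probe sets was 0.20 and not called (adjusted p = 0.449). Aldh1l1, a cytosolic formyltetrahydrofolate dehydrogenase, rose by 1.01 ± 0.25. Tyms, the thymidylate synthase, had 2.5 and 27.0 in KO cells, against 90.4 and 108 in WT cells. Both KO signals lie under the dim limit of 33.2, so Tyms passed the filter only through the WT arrays. With KO set at that limit, Tyms was at least 2.34-fold lower in KO cells. Its adjusted p of 0.0265 (limma) comes from the fit on the measured signals, and this bound was not tested. The purine synthesis genes Gart, Atic, Paics, Pfas, Ppat and Gmps did not pass, with differences of -0.38 to 0.20. Mtrr, which reactivates methionine synthase, was at -0.47 ± 0.14 and Aldh1l2 at 0.40 ± 0.35, neither called. Tyms lost its call without either WT array or KO array 1, and Aldh1l1 without either WT array or KO array 2. In all, 14.3% of these genes were called, against 20.3% of all genes tested.

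**Figure D2:**
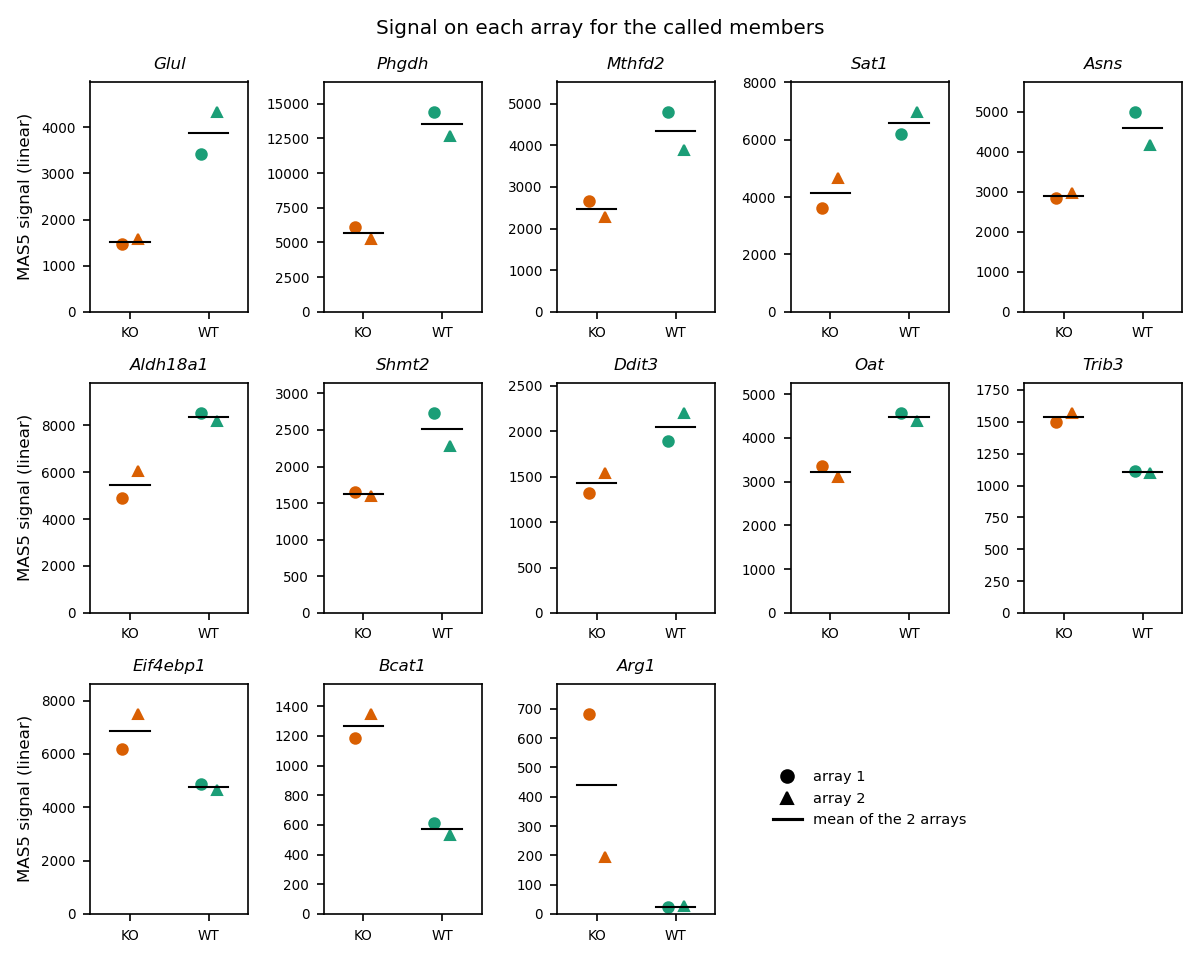
MAS5 signal on a linear scale on each array for the 13 called members, with circles for array 1, triangles for array 2 and bars for the mean of the 2 arrays, KO left of WT in each panel. KO and WT points do not overlap in any panel, and relative to the mean the widest spread within a group is that of Arg1, at 684 and 194 in KO cells.

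Atf4 itself was not called at the RNA level, where its known regulation by translation is not seen. It had 3630 and 3606 in KO cells, against 4018 and 3909 in WT cells, a log2 difference of -0.13 ± 0.097 (limma, adjusted p = 0.403) with a 95% interval of -0.35 to 0.092. Atf5, a related factor, had 292 and 288 in KO cells, against 356 and 280 in WT cells, and the groups overlapped. The known targets of Atf4 on the list moved in both directions. Asns, the asparagine synthetase, had 2835 and 2979 in KO cells, against 5007 and 4172 in WT cells. It fell by 0.65 ± 0.12 on the log2 scale (limma, adjusted p = 0.00726). This probe set is marked for possible cross-hybridisation, and the unmarked probe set of Asns was at -0.48 ± 0.14 and not called (limma, adjusted p = 0.0513). Ddit3, which encodes the stress factor Chop, had 1316 and 1539 in KO cells, against 1896 and 2207 in WT cells, and fell by 0.52 ± 0.14 (adjusted p = 0.0338, limma). Its dimmer probe set was at -0.42 ± 0.23 and not called (limma, adjusted p = 0.258). The call of Ddit3 was lost with no filter (limma, adjusted p = 0.0580) and with the mean over its probe sets (0.0510).

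Trib3, a pseudokinase induced by Atf4 and Chop, went the other way. It had 1497 and 1573 in KO cells, against 1111 and 1101 in WT cells, and rose by 0.47 ± 0.12 on the log2 scale (limma, adjusted p = 0.0324). This probe set is marked as well, and the unmarked probe set of Trib3 was at 0.41 ± 0.16 and not called (limma, adjusted p = 0.117). Eif4ebp1, a repressor of cap-dependent translation, had 6183 and 7511 in KO cells, against 4869 and 4661 in WT cells. It rose by 0.52 ± 0.11 (limma, adjusted p = 0.0181), and 2 of its 3 probe sets were called. Chac1, which degrades glutathione, had 208 and 187 in KO cells, against 290 and 279 in WT cells, with no overlap and no call (log2 difference -0.50 ± 0.21, limma, adjusted p = 0.139). Several of these calls were lost in fits with 1 array left out, which called fewer of all genes as well. That of Trib3 was lost whichever array was left out, while its log2 difference stayed at 0.43 to 0.50. That of Ddit3 was lost without WT array 2 (log2 difference -0.41) or KO array 1 (-0.41). The call of Asns was lost without WT array 1 (-0.52), and that of Eif4ebp1 without WT array 1 (0.55) or WT array 2 (0.48).

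Promoters of these genes are shown because Atf4 binds, with C/EBP proteins, to an element whose letters are TGATGNAA. The element was searched on both strands in windows from 250 bases before to 50 bases after the start site, taken from RefSeq (build GRCm38.p6), in which 34 of the 39 members were matched, with 39 windows in all. Cth, Eif4ebp1, Arg1, Arg2 and Srm were not matched. The element occurred in 6 of the 39 windows, those of Asns, Chac1, Got1, Pck2, Pycr1 and Trib3, and in 3.97% of all 32851 windows. Asns and Trib3 both hold the element, and their RNA was called in opposite directions on probe sets marked for possible cross-hybridisation. Their unmarked probe sets kept these directions and were not called. The whole windows of Asns (chr6:7693160-7693459, minus strand) and Trib3 (chr2:152344011-152344310, minus strand) follow, with the matched letters in capitals.
Asns: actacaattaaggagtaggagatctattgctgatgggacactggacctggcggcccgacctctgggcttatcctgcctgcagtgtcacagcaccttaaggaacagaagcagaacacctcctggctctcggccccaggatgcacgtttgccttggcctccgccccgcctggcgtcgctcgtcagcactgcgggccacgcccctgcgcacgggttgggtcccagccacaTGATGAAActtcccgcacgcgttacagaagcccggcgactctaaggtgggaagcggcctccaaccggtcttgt
Trib3: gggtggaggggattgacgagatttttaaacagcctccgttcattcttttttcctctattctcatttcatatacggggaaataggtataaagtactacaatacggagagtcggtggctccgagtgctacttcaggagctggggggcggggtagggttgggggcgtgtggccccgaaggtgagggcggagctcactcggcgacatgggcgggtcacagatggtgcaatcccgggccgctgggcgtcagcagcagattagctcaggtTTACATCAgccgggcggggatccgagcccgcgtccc

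In Asns the match began 23 bases before the start site on the strand of the gene, and in Trib3 it began 14 bases after the start site on the opposite strand. The matches of the measured members that were not called lay farther upstream, and are shown with 20 bases on either side. All 3 read on the strand opposite to the gene, at 193 bases before the start site in Chac1 (chr2:119351029-119351076, plus strand), 102 in Got1 (chr19:43524680-43524727, minus strand) and 103 in Pck2 (chr14:55540143-55540190, plus strand).
Chac1: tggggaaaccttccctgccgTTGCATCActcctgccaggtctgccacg
Got1: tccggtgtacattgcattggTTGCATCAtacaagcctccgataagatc
Pck2: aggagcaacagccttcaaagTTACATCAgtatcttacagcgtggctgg

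Among the 5 measured members with this element, 1 fell, 1 rose and 3 were not called, while Phgdh, Mthfd2 and Shmt2, which fell, had no match in their windows. A match is a description of letters and no proof of binding. The E-box CACGTG, a palindrome bound by Myc, occurred in 3 of the 39 windows, those of Aldh18a1, Cbs and Sms, and in 7.15% of all windows. That of Aldh18a1, a called member, began 59 bases before its start site (chr19:40588497-40588542, minus strand).
Aldh18a1: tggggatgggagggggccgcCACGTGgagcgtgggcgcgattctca

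The other listed genes of the Atf4 and amino acid response moved both ways, with 9 of 25 tested higher and 2 lower, or 44% called against 20.3% of all genes tested. Jdp2, an AP-1 family repressor, had 1711 and 1839 in KO cells, against 192 and 315 in WT cells (log2 difference 2.77 ± 0.22, limma, adjusted p = 0.000121). Vldlr, a lipoprotein receptor, rose by 1.85 ± 0.17, and Cebpb, a partner of Atf4 at its elements, by 0.92 ± 0.11. Among amino acid carriers, Slc7a5, which imports large neutral amino acids, had 3354 and 3028 in KO cells, against 1981 and 2167 in WT cells, and rose by 0.62 ± 0.11. The cystine carrier gene Slc7a11 rose by 1.69 ± 0.39 on a probe set of low signal, with 187 and 137 in KO cells and 23.8 and 59.5 in WT cells. The 2 that fell were the cationic amino acid carrier gene Slc7a1 (-0.59 ± 0.12) and the small neutral amino acid carrier gene Slc38a2 (-0.47 ± 0.11). Slc6a9, a glycine carrier gene, was at -0.70 ± 0.25, and Slc1a5, a glutamine carrier gene, at 0.50 ± 0.27, and neither was called. The calls of Slc7a11 and Slc7a1 were lost without WT array 1, that of Slc7a11 also without KO array 1, and that of Slc38a2 without WT array 2.

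Of 19 tested cytosolic aminoacyl-tRNA synthetase genes, which charge tRNAs with amino acids, 3 were called and by small steps. The share called was 15.8%, against 20.3% of all genes tested. Hars (0.46 ± 0.10) and Qars (0.39 ± 0.10) rose and Sars (-0.35 ± 0.10) fell. The other 16, among them Nars at -0.34 ± 0.13 and Eprs at 0.17 ± 0.11, did not pass, and the median of the 19 was -0.049. All 3 lost their calls when either WT array was left out, Qars also without KO array 1 and Sars without KO array 2.

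Glul, the glutamine synthetase, showed the largest fall among the members. It had 1462 and 1575 in KO cells, against 3427 and 4339 in WT cells. It fell by 1.34 ± 0.14 on the log2 scale (limma, adjusted p = 0.000427), and WT signal was 2.53 times that of KO cells. The dimmer of its 2 probe sets had the same sign at -0.71 but was not called. Glud1, the glutamate dehydrogenase, had 4939 and 4815 in KO cells, against 5605 and 5728 in WT cells, a log2 difference of -0.22 ± 0.093 that did not pass (limma, adjusted p = 0.153).

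The aminotransferases and mitochondrial Pck2 differed less. Gpt2, the mitochondrial alanine aminotransferase, had 215 and 173 in KO cells, against 290 and 327 in WT cells (log2 difference -0.64 ± 0.22, limma, adjusted p = 0.0804). Got1 and Got2, the cytosolic and mitochondrial aspartate aminotransferases, were at -0.057 ± 0.13 and -0.16 ± 0.099. Pck2, which makes phosphoenolpyruvate in mitochondria, had 1076 and 876 in KO cells, against 1151 and 1029 in WT cells. The Gpt2 value comes from a probe set marked for possible cross-hybridisation. Both unmarked probe sets of Gpt2 were dimmer than that, the brighter at -0.010 ± 0.40 (limma, adjusted p = 0.991) and the other at -0.064 ± 0.39. The brighter had 50.6 and 123 in KO cells, against 85.1 and 77.0 in WT cells. A further marked probe set of Gpt2 was at -0.84 ± 0.33 and not called. KO and WT arrays overlapped for Got1 and Pck2 and not for Gpt2 and Got2, and none of these genes was called.

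Of the branched-chain aminotransferases, the cytosolic one was higher in KO cells. Bcat1 had 1184 and 1350.5 in KO cells, against 613 and 531 in WT cells. It rose by 1.13 ± 0.15 on the log2 scale, or 2.18-fold (limma, adjusted p = 0.00159). Its other 2 probe sets had low signals and split. The first had 88.3 and 119 in KO cells against 62.8 and 63.6 in WT cells (0.58). The second had 67.7 and 82.4 in KO cells against 129 and 103 in WT cells (-0.54). The mean over its probe sets was 0.39 and not called (adjusted p = 0.240). Bcat2, the mitochondrial enzyme, had 292 and 280 in KO cells, against 335 and 260 in WT cells, and its difference of -0.046 has a 95% interval of -0.52 to 0.43. Bckdhb, a subunit of the dehydrogenase that acts after them, fell by 0.74 ± 0.17, while Bckdha, Bckdk and Dbt were between -0.046 and 0.090 and did not pass.

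**Figure D3:**
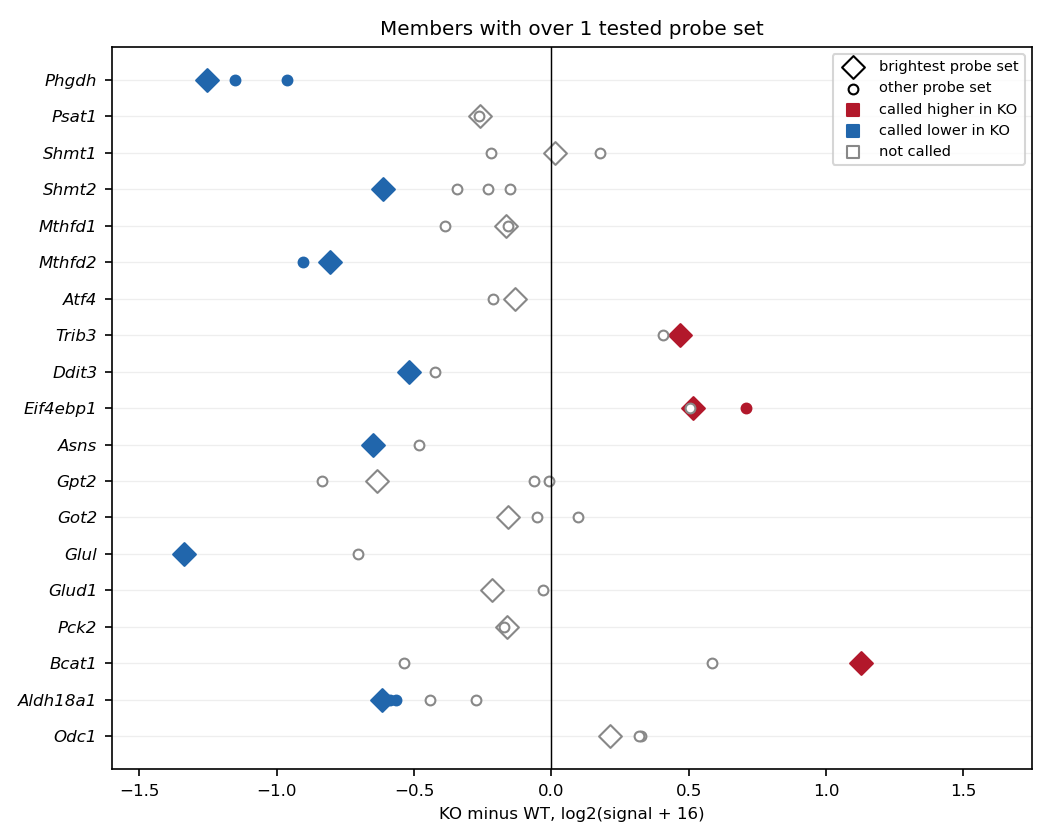
KO minus WT difference on the log2(signal + 16) scale for each tested probe set of the 19 members that have over 1, with diamonds for the brightest and circles for the others, filled where called. Phgdh and Mthfd2 have every probe set called lower, and Bcat1 is the called member whose probe sets lie on both sides of 0, from -0.54 to 1.13.

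Probe sets of 1 gene mostly pointed the same way. Of 19 members with over 1 tested probe set, 16 had all of them on the same side of 0, and 0 had calls in both directions. Among the 10 called members of this kind, every probe set was called for 2, Phgdh and Mthfd2. For 6 of the 13 called members the brightest probe set carries a mark of possible cross-hybridisation, namely Phgdh, Shmt2, Trib3, Eif4ebp1, Asns and Aldh18a1.

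Proline can be made from glutamate by Aldh18a1 and Pycr1, and Oat links it to ornithine. Aldh18a1, which makes the shared pyrroline intermediate, had 4896 and 6032 in KO cells, against 8536 and 8167 in WT cells. It fell by 0.62 ± 0.12 on the log2 scale (limma, adjusted p = 0.00859), and 3 of its 5 probe sets were called lower. The mean over its probe sets was -0.50 and not called (limma, adjusted p = 0.0846). Oat, the ornithine aminotransferase, had 3348 and 3098 in KO cells, against 4581 and 4384 in WT cells, and fell by 0.47 ± 0.10 (limma, adjusted p = 0.0153). Its call was lost without WT array 1 (0.0964) or WT array 2 (0.0632). Prodh, which degrades proline, was near the dim limit at 39.5 and 37.6 in KO cells and 35.7 and 45.0 in WT cells, so that a difference could hardly be detected (95% interval of the log2 difference -0.97 to 0.89).

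Arg1, the cytosolic arginase, had the largest difference of the list. It had 684 and 194 in KO cells, against 22.4 and 27.7 in WT cells, where it was dim. Both WT signals lie under the dim limit of 33.2, so Arg1 passed the filter only through the KO arrays, and its size is a lower bound. With WT set at that limit, Arg1 was at least 7.79-fold higher in KO cells. Its adjusted p of 0.00358 (limma) comes from the fit on the measured signals, and the bound itself was not tested. The fitted log2 difference depends on the constant added and on the KO array, at 3.82 with 1 added to the signal and 2.30 with 64, and 2.35 without KO array 1 and 4.09 without KO array 2. Arg1 is also a known gene of macrophages and group 2 innate lymphoid cells, and is on the latter marker list here, of which Rora and Klrg1 rose too and Gata3 was at -0.36 and not called. Summed over that list, Arg1 included, signals were 3842 and 3080 in KO cells and 2534 and 3091 in WT cells, so that the groups overlapped.

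Like Arg1, 9 of the 10 marker lists, those of T cells included, had a higher summed signal on KO array 1 than on KO array 2. Among them is the list of group 2 innate lymphoid cells, which holds Arg1 itself. Of the 5 eosinophil markers Prg2 and Epx rose and Siglecf, Ccr3 and Il5ra were too dim to test, with sums of 5469 and 2064 in KO cells and 26.9 and 88.8 in WT cells. The neutrophil markers S100a8, S100a9 and Cxcr2 rose, Elane (1.17) was not called, and Mpo was too dim to test. Sums over the neutrophil markers were 2031 and 1074 in KO cells and 81.5 and 155 in WT cells. Both WT signals of Prg2, S100a9 and Cxcr2 lie under the dim limit of 33.2, so these genes passed the filter only through the KO arrays. Epx and Elane also passed only through the KO arrays, with mean WT signals of 26.5 and 20.7. The part of these cell types in the rise of Arg1 was not tested. Arg2, the mitochondrial arginase, was dim in both groups, at 39.5 and 12.5 in KO cells and 35.1 and 6.2 in WT cells.

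Of the other listed genes around glutamine, proline, arginine and branched-chain amino acids, 2 of 17 tested rose and 4 fell. This makes 35.3% called, against 20.3% of all genes tested. Gatm, which uses arginine and glycine in creatine synthesis, had 831 and 857 in KO cells, against 110 and 102 in WT cells, and rose by 2.82 ± 0.19 (limma, adjusted p = 4.91e-05). Slc25a15, the mitochondrial ornithine carrier gene, rose by 0.83 ± 0.14. Slc38a1, a glutamine carrier gene (-0.55 ± 0.10), Cad, the enzyme of the early steps of pyrimidine synthesis (-0.67 ± 0.15), Bckdhb and Gpt, the cytosolic alanine aminotransferase (-0.63 ± 0.18), fell. The call of Gpt was lost when any single array was left out, those of Bckdhb and Cad without WT array 1 or KO array 2, and that of Slc38a1 without WT array 1. Aldh4a1, of proline breakdown, was at 0.30 ± 0.39 and Ctps, the CTP synthase, at -0.28 ± 0.20, neither called.

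Of the 3 tested genes of methionine and transsulfuration on the list, limma called 0, against 20.3% of all genes tested. Only 1, Cth, had an unadjusted p under 0.05. Ahcy, which clears S-adenosylhomocysteine, had 8677 and 6371 in KO cells, against 6867 and 7117 in WT cells. The WT arrays lay between the KO arrays, and without KO array 1 its difference of 0.089 turned to -0.13. Cth, which makes cysteine from cystathionine, had 212 and 135 in KO cells, against 281 and 261 in WT cells (log2 difference -0.63 ± 0.26, limma, adjusted p = 0.136), and was called without KO array 1 at -0.93 (adjusted p = 0.0497), while without KO array 2 it was at -0.33 (adjusted p = 0.433). Cbs, the step before it, had low signals of 68.0 and 123 in KO cells and 67.4 and 87.8 in WT cells.

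Of 17 other tested genes of sulfur and methionine metabolism, 6 fell and 1 rose, or 41.2% called against 20.3% of all genes tested. Mpst, which makes hydrogen sulfide from mercaptopyruvate, had 481 and 508 in KO cells, against 1261 and 1177 in WT cells (log2 difference -1.27 ± 0.14, limma, adjusted p = 0.000635). Ahcyl2, a relative of Ahcy, had 3249 and 3694 in KO cells, against 8103 and 8419 in WT cells, and fell by 1.25 ± 0.10. The sulfide-clearing enzyme genes Ethe1 (-0.62 ± 0.16) and Sqor (-0.64 ± 0.16) fell, as did Ahcyl1 (-0.36 ± 0.098). The subunits of the enzyme that starts glutathione synthesis split, with the catalytic Gclc at -0.68 ± 0.12 and the modifier Gclm at 0.58 ± 0.15. Ethe1 and Sqor lost their calls without WT array 1 or KO array 1, Sqor also without KO array 2, Ahcyl1 when any single array was left out, and Gclm without either WT array or KO array 1. Adi1, of the methionine salvage pathway, was at -0.69 ± 0.34 and Csad, of taurine synthesis, at -0.66 ± 0.24, neither called. Adi1 had 690 and 1710 in KO cells, against 1811 and 1728 in WT cells, and its difference was -0.049 without KO array 1 and -1.34, called lower, without KO array 2.

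In the polyamine group, synthesis genes were not called and the catabolic Sat1 fell. Sat1, which acetylates spermidine and spermine for export or breakdown, had 3612 and 4661 in KO cells, against 6191 and 6979 in WT cells. It fell by 0.68 ± 0.14 on the log2 scale (limma, adjusted p = 0.0111), and lost its call without WT array 2 (adjusted p = 0.0542). Odc1, the rate-limiting enzyme, had 10335 and 13200.4 in KO cells, against 10587 and 9558 in WT cells (log2 difference 0.22 ± 0.13, limma, adjusted p = 0.285). The groups overlapped, and the difference was 0.39 without KO array 1 and 0.039 without KO array 2. This probe set is marked for possible cross-hybridisation. An unmarked probe set, nearly as bright, had 11396 and 11052 in KO cells, against 9609 and 8399 in WT cells, without overlap. Its difference of 0.32 ± 0.098 was not called (limma, adjusted p = 0.0567). A dimmer unmarked probe set was at 0.33 ± 0.16 and not called. Srm, the spermidine synthase, had 1746 and 1901 in KO cells, against 1505 and 1457 in WT cells, with no overlap and no call (0.30 ± 0.12, limma, adjusted p = 0.127).

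Oaz1, the antizyme that inhibits Odc1 and is controlled by a frameshift in translation, had 23078 and 23173 in KO cells, against 27802 and 27276 in WT cells, a log2 difference of -0.25 ± 0.077 that missed the threshold (limma, adjusted p = 0.0583). Without either KO array it was called lower, at 0.0304 without KO array 1 and 0.0280 without KO array 2. Of the 10 other polyamine genes tested with limma, 0 were called, against 20.3% of all genes tested, and 4 had an unadjusted p under 0.05. Smox, the spermine oxidase, was at 0.40 ± 0.14 and Oaz2 at -0.38 ± 0.12.

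Genes around eIF4E and mTORC1, the growth signal that Eif4ebp1 answers to, moved both ways, with 2 of 15 tested higher and 3 lower. That is 33.3% called, against 20.3% of all genes tested. Castor1, an arginine sensor that restrains mTORC1, had 4926 and 5237 in KO cells, against 2920.0 and 3142 in WT cells, and rose by 0.74 ± 0.10 (limma, adjusted p = 0.0019). Sesn1, of the leucine-sensing sestrins, had 878 and 1635 in KO cells, against 3717 and 3978 in WT cells, and fell by 1.67 ± 0.24. Eif4a1 rose by 0.34 ± 0.090, and Rps6 (-0.60 ± 0.15) and Tsc1 (-0.53 ± 0.15) fell. Eif4a1, Rps6 and Tsc1 lost their calls when either WT array or KO array 1 was left out, and Tsc1 also without KO array 2. Rps6kb2, an S6 kinase gene, was at 0.75 ± 0.30 and Castor2 at -0.45 ± 0.17, neither called. Eif4e itself was at 0.013 and Mtor at 0.023, neither called.

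**Figure D4:**
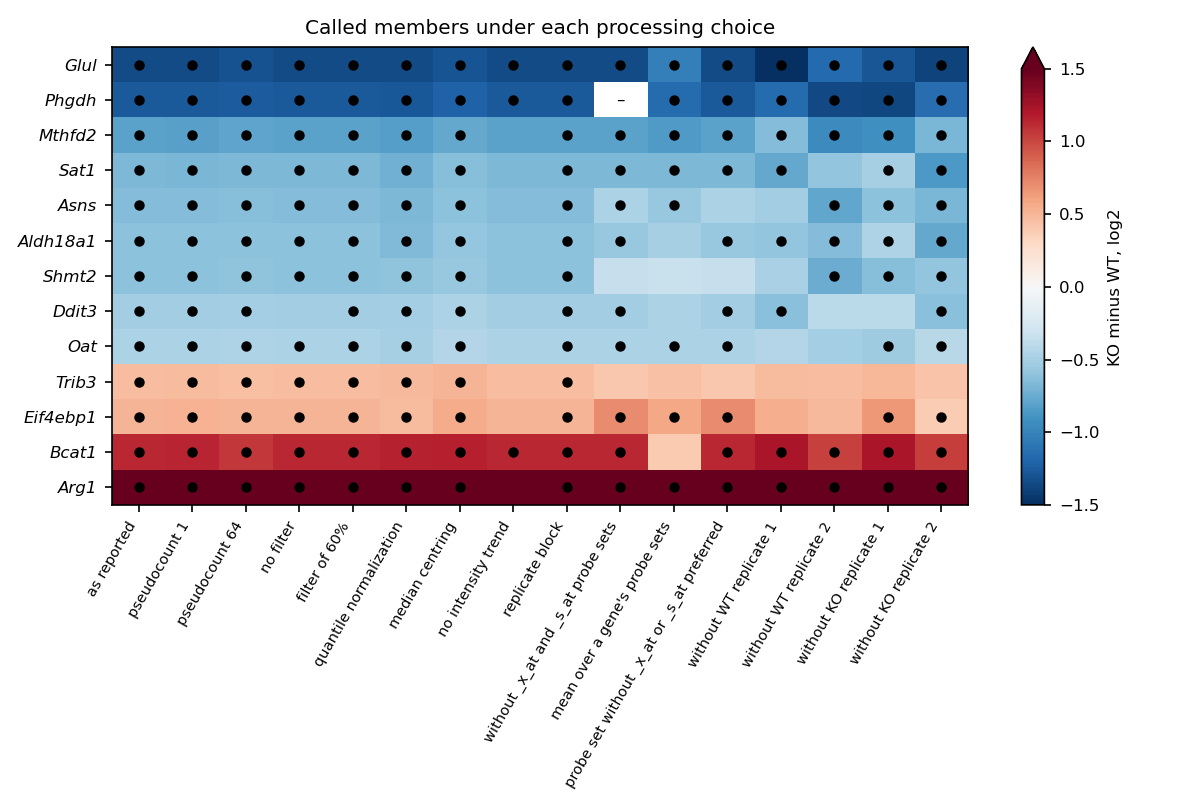
KO minus WT log2 difference of the 13 called members (rows) under the reported processing and each alternative (columns), in colour from blue (lower in KO) to red (higher in KO), with a dot where the adjusted p stayed under 0.05 and a dash where no value could be given. Glul keeps its dot in every column and Phgdh wherever it has a value, while Trib3 loses it in 8 of 15 alternatives.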

How the data were processed

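Naive splenic T cells, 2 KO and 2 WT samples grouped by title, were cultured for 3 days and measured on 1 array each; per the labels' protocols, biotinylated cRNA was made from 6 micrograms of Trizol-extracted RNA. What was deposited is 1 intensity per probe set on a linear scale, from MAS5 per the submitters' processing notes; its version and settings are not given in the sources used here. A 2% trimmed mean of 500 on every array shows global scaling, which removes differences in total RNA per cell; dim MAS5 signals are noisy.

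From the 45101 probe sets, 64 controls were left out; 34945 of the rest name 1 gene, by platform annotation with symbols updated through RefSeq (GRCm38.p6). On log2(signal + 16), the dimmest 40% were left out, leaving 27022 (12547 genes). The difference KO minus WT was fitted in limma 3.58.1 under R 4.3.3 (lmFit, eBayes with intensity trend, two-sided, 2 residual and 6.41 prior degrees of freedom), with Benjamini-Hochberg adjustment over all 27022 at 0.05; "called" means past it. Exact permutation of 2 against 2 arrays cannot go below p = 0.333. Fold changes on this scale understate dim genes. The number of arrays limits the precision.

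All 39 members were named, and of each other list the called genes with the 4 smallest p and 2 uncalled ones with the largest difference; other names were added after values were seen. Members and lists were chosen with earlier results of these data known. Alternatives were pseudocounts of 1 and 64, no filter or 60%, quantile normalization, median centring, no trend, the array number as a block, 3 choices of probe sets, and leaving out each array. The fit was tested on simulated data for 27022 probe sets, with 50 changed at each size. Calls recovered 0% of those changed by 0.5 on the log2 scale, 30% at 1, 60% at 2 and 86% at 3, and 5 of 93 calls were false. In the data 4608 probe sets were called, far more than were changed in the simulation, so the adjustment was stricter in the simulation. Its recovery therefore does not give the power behind the real calls. Promoters were searched with Python 3.11.15.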

Additional observations from a re-analysis of the deposited data

How the results depend on the processing

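Of the 13 called members, Glul kept its call under all 15 alternatives and Phgdh under the 14 that gave it a value, and no called member changed direction under any alternative that gave a value. Without the intensity trend, 1 member was called higher and 2 lower, 3 and 2 of the other listed genes, and 727 and 456 of all probe sets; the cause was not tested. Averaging each gene's probe sets gave 14.8% of all genes called, with 2 members higher and 6 lower. It gave 10 higher and 9 lower among the other listed genes. Testing all probe sets with no filter gave 10 and 10 of those. With single arrays left out, 2 to 4 members were called higher, 6 to 10 lower, 10 to 17 of the other listed genes higher and 5 to 12 lower, and 1163 to 2570 probe sets lower; with 3 arrays, the lone array is assumed to vary like the others. The 8 changes of sign, in 7 members and none of them called, came with single arrays left out, where log2 differences ranged from -0.055 to 0.082 for Shmt1, -0.28 to 0.052 for Atf5, -0.16 to 0.052 for Got1, -0.22 to 0.13 for Bcat2, -0.16 to 0.076 for Prodh, -0.13 to 0.31 for Ahcy and -0.15 to 0.58 for Cbs. Likewise that of Aldh4a1 ranged from -0.25 to 0.85, and averaging probe sets turned Slc1a5 to -0.37, Eprs to -0.046 and Smox to -0.14. Same-numbered arrays did not deviate together (r = 0.010), and with the array number as a replicate block 4 members were called higher and 9 lower, 18 and 18 of the other listed genes, and 2412 and 2970 of all probe sets. Signals near the dim limit of 33.2 leave Prodh, Cbs, Gldc and Arg2 undecided.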

Other observations

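The 8 tested members of serine synthesis and the folate cycle were brighter on WT array 1 than on WT array 2, while the dim Gldc was not. Their log2 differences were 0.065 to 0.33, and the same order held for 17 of the 26 other tested members. Over all genes tested, 48.6% were brighter on WT array 1. In KO cells 7 of the 8 were brighter on KO array 1, against 51.2% of all genes. The pattern was seen in these values and was not tested.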
